A study of Bos taurus with 33 samples.

Results

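The genes described here encode the subcortical maternal complex of the mammalian egg and its close associates, namely NLRP5, NLRP2, OOEP, TLE6, KHDC3L and PADI6, together with the maternal-effect gene ZAR1. The 7 genes were chosen by symbol and looked up in a table of 16279 genes measured in bovine oocytes and a table of 16244 genes measured in cumulus cells (CC), the somatic cells that enclose the oocyte, joined by Ensembl gene identifier. Of the 7 genes, 6 were found in the oocyte table and 5 in the CC table. The symbol NLRP2 was in neither table and was not analysed here, and PADI6 was listed for oocytes alone. TLE6 had no symbol in the oocyte table and was identified there through the identifier it shares with the CC table (ENSBTAG00000001152).

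RNA was sequenced from pools of 4 oocytes, or of the CC of 4 cumulus-oocyte complexes, aspirated from the preovulatory follicles of suckled postpartum Hereford-Angus cows about 20 h (sample labels) or 23 h (treatment protocol) after the ovulatory stimulus. All cows received GnRH on day -9 and prostaglandin F2 alpha on day -2. Cows without estrus received GnRH again on day 0 and gave the small (largest follicle up to 11.7 mm) and large (from 12.7 mm) classifications. Cows in estrus had their own gonadotropin surge without that injection and gave the spontaneous classification. Its follicles ranged from 11.7 mm to an upper limit above 12.7 mm and overlapped the large classification in size. The large classification had no stated upper limit, so the order small, large, spontaneous is not an order of follicle size. There were 6 small, 6 large and 4 spontaneous oocyte pools and 6, 6 and 5 CC pools. Each pool mixed complexes, so differences among individual oocytes within a pool were not measured. The spontaneous classification differed from the others in estrus, in the trigger of the surge and in follicle size, and these cannot be told apart.

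As background, the subcortical maternal complex is a protein assembly beneath the plasma membrane of the egg and of the cleaving embryo, and its subunits are translated from transcripts that the growing oocyte makes and stores. In mice, eggs whose mothers lack one of the core subunits can be fertilised, but the embryos stop or falter in early cleavage, which is why such genes are called maternal-effect genes. NLRP5 (also called MATER), OOEP (FLOPED) and TLE6 form the core, KHDC3L (FILIA) binds to it, and PADI6 and NLRP2 are associated proteins. ZAR1 is an RNA-binding maternal-effect protein that takes part in the storage of maternal messenger RNA and is not a subunit of the core.

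Levels are given in CPM, reads per 1000000 of a pool's reads that fell on genes. Depth ran from 7664375 to 17934916 such reads in oocyte pools and from 1911600 to 5772431 in CC pools, and 3 reads, the upper limit that a count of 0 allows, were worth 0.167 to 0.391 CPM and 0.52 to 1.57 CPM, respectively. Limits and intervals based on reads cover counting error only, since the cDNA was amplified. The oocyte label held in the data, since 10 listed oocyte markers summed to 8940 to 13031 CPM in every oocyte pool, against 0 to 5.34 CPM for the 5 of them listed in CC pools. All 13 cumulus and granulosa markers were also present in the oocyte pools, at a sum of 820.1 to 4381 CPM, and CSF1R alone made up 110.7 to 254.4 CPM of a white blood cell list that summed to 121.3 to 258.9 CPM and had CORO1A at 0. Markers of red blood cells, theca and endothelium summed to at most 0.568, 119.2 and 26.2 CPM. Transcript lengths were not available, so the CPM of different genes, where they stand side by side, do not rank the genes by level.

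NLRP5 (ENSBTAG00000013247), the scaffold protein of the complex, ranged from 92.1 to 332 CPM over the 16 oocyte pools. In small oocyte pools its lowest, median and highest values were 92.1, 139 and 332 CPM, and in large pools 126, 131 and 165 CPM. The spontaneous pools had 116, 231, 144 and 211 CPM. The 3 classifications overlapped, and small replicate 6 lay above every other pool. Its means were 162 ± 85.4 (SD, n = 6) in small, 138 ± 15.4 (SD, n = 6) in large and 176 ± 54.3 CPM (SD, n = 4) in spontaneous pools.

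OOEP (ENSBTAG00000019600), a small protein with a KH-like domain that is needed to assemble the core, showed its tightest range in spontaneous pools. These 4 pools had 69.3, 64.4, 80.8 and 83.7 CPM. Small pools ran from 25.6 through a median of 47.9 to 66.4 CPM, and large pools from 33.7 through 46.9 to 83.8 CPM. All but 1 small pool and all but 1 large pool lay below the lowest spontaneous pool, and large replicate 1 lay just above the highest. Means were 47.2 ± 16.1 (SD, n = 6), 49.3 ± 18.2 (SD, n = 6) and 74.5 ± 9.21 CPM (SD, n = 4) in small, large and spontaneous pools.

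TLE6, a member of the Groucho family of corepressors that works in the egg as a core subunit, was the most variable member over all 16 pools. Small pools had a lowest, median and highest value of 19.2, 30.6 and 47.1 CPM, large pools 15.5, 28.1 and 52.9 CPM, and the spontaneous pools 23.6, 42.7, 40.4 and 85.8 CPM. The ranges overlapped, and spontaneous replicate 4 was the highest of all 16 pools. The spontaneous mean was 48.1 ± 26.5 CPM (SD, n = 4). Small and large pools averaged 31.6 ± 10.1 and 30.2 ± 13.8 CPM (SD, n = 6 each). In the RefSeq annotation of the assembly ARS-UCD2.0, a later build than the one used for the counts, the TLE6 gene body overlaps those of TLE2 and ZNF77. The protocol does not keep the strand of the RNA, so reads from overlapping genes could not be told apart by strand. TLE2 averaged 2.50 CPM and ZNF77 49.6 CPM over the oocyte pools. In CC pools ZNF77 was at 6.80 to 36.4 CPM and TLE6 at 0 to 1.23 CPM.

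KHDC3L (ENSBTAG00000034925), a KH-domain protein of the complex, had nearly the same range in every classification. Its lowest, median and highest values were 19.8, 34.9 and 58.2 CPM in small and 17.2, 38.5 and 52.9 CPM in large pools, and the spontaneous pools had 59.6, 44.9, 24.4 and 37.8 CPM. KHDC3L lies next to OOEP in the RefSeq annotation. PADI6 (ENSBTAG00000038945), a peptidylarginine deiminase of the egg cytoplasmic lattices, had 59.1, 93.5 and 135 CPM in small pools, 87.1, 104 and 117 CPM in large pools, and 142, 74.9, 103 and 125 CPM in the spontaneous pools. The small pools of PADI6 extended both below and above all large pools. The neighbouring deiminase gene PADI4 was at 0 to 0.398 CPM in oocytes.

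ZAR1 (ENSBTAG00000004886) showed the clearest ordering of classifications, which is not an order of follicle size. Small pools ran from 36.0 through a median of 71.7 to 81.1 CPM and large pools from 46.6 through 78.7 to 131 CPM. The spontaneous pools had 87.6, 96.3, 135 and 129 CPM. All 4 spontaneous pools lay above all 6 small pools, while the large pools overlapped both. Means were 65.6 ± 18.3 (SD, n = 6) in small, 82.1 ± 28.5 (SD, n = 6) in large and 112 ± 23.6 CPM (SD, n = 4) in spontaneous pools.

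**Figure D1:**
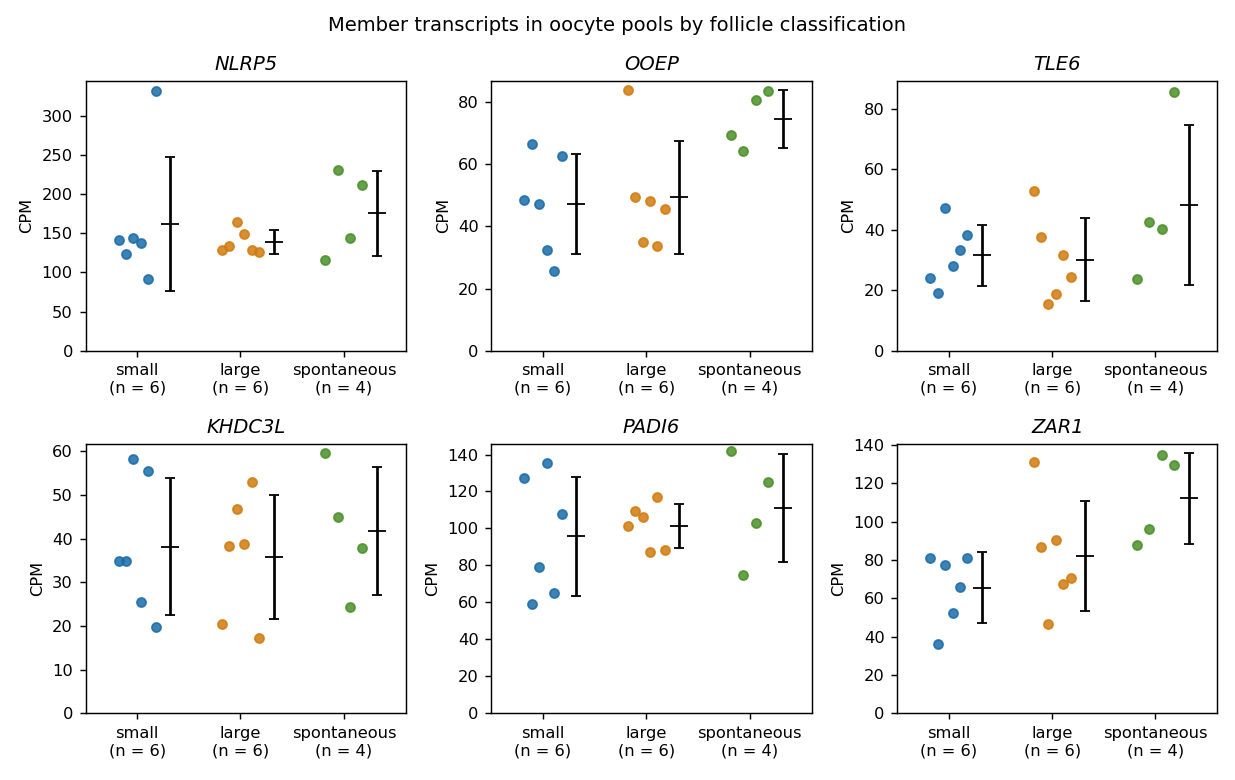
CPM (vertical axes, each starting at 0) of the 6 listed members in oocyte pools from small (n = 6), large (n = 6) and spontaneous (n = 4) follicles. Points are pools and black marks are the mean ± SD. ZAR1 is the panel in which the spontaneous pools (87.6 to 135 CPM) clear the small pools (36.0 to 81.1 CPM), and small replicate 6 of NLRP5 stands at 332 CPM.

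The question put to the oocyte pools was whether the status of the follicle at the surge goes with the transcripts stored in the egg. Each pair of classifications was tested with limma on log2(CPM + 1) over 10076 transcripts, each of which reached 5 CPM in 4 or more oocyte pools, and all 6 listed members were among them. A transcript was called at a nominal p of 0.01 or less. In comparisons with small pools it also had to be called without small replicate 3. That rule is the study's, which found outlying values of some transcripts in this pool, and it was also the shallowest oocyte pool. Each oocyte pool held 4 oocytes, and CPM is a share of a pool's reads, so the amount of RNA per oocyte was not measured. In CC pools, where the number of cells is not given, fewer cells of a type and less RNA per cell cannot be told apart. The labels do not say which animals each pool came from, so p-values set a difference against the spread between these pools.

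Between small and large pools, 0 of 6 members were called by limma, against 0.655% of all transcripts tested. ZAR1 had the largest change, 0.30 higher in large pools on the log2 scale (SE 0.268, limma adjusted p = 0.997), and the other changes lay between -0.12 for TLE6 and 0.15 for PADI6. At an unadjusted p under 0.05 the count was also 0, against 4.11% of all transcripts, and edgeR and DESeq2 on recovered reads called 0 members as well. Of the 6 members 3 had a log2 fold change above 0, against 55.5% of all transcripts, and the median was -0.02 beside 0.05 over all transcripts. The 95% intervals still allowed changes of some size, from -0.56 to 0.35 for NLRP5 and from -0.87 to 0.62 for TLE6. For NLRP5 the sign depended on small replicate 6, without which the log2 fold change was 0.13 in place of -0.10.

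Between small and spontaneous pools, 0 of 6 members were called by limma, against 0.774% of all transcripts. ZAR1 was nearest to a call. It was 0.79 higher in spontaneous pools on the log2(CPM + 1) scale (SE 0.291, 95% interval 0.20 to 1.39), or 1.73-fold, with a nominal limma p of 0.0109 and an adjusted p of 0.987. Its groups did not overlap, which held for 0.903% of all transcripts, and the exact permutation test of its mean CPM gave p = 0.00952, the smallest value that this two-sided test allows for 6 pools against 4. OOEP was 0.72 higher in spontaneous pools (SE 0.332, 95% interval 0.04 to 1.40, nominal limma p = 0.0397, adjusted p = 0.987, exact permutation p = 0.019). These were the 2 members with an unadjusted p under 0.05, against 4.51% of all transcripts. The p of OOEP was over 0.05 with median-of-ratios scaling, edgeR, DESeq2 or the replicate block, and without small replicate 3, 4 or 5 or spontaneous replicate 1, 3 or 4, up to 0.0986, beside the exact permutation p of 0.019 with all pools. TLE6 was 0.50, PADI6 0.24, NLRP5 0.19 and KHDC3L 0.15 higher in spontaneous pools, each with a 95% interval that held 0. Without spontaneous replicate 4 the change of TLE6 was 0.18, and that of KHDC3L was -0.0073 without small replicate 6 and -0.037 without spontaneous replicate 1.

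The value of ZAR1 sat at the edge of the call. Its nominal limma p was 0.00934 when all 3 classifications shared a fit, and leaving out each pool in turn gave p from 0.00771 (without small replicate 6) to 0.0419 (without spontaneous replicate 3), with log2 fold changes of 0.63 to 0.90. It was called in 3 of these fits, in which small replicate 1, spontaneous replicate 1 or small replicate 6 was left out. Without small replicate 3 the log2 fold change was 0.85. Small pools had 7664375 to 13525662 reads on genes and spontaneous pools 13182627 to 17934916, and whether ZAR1 followed depth was not tested. The share of reads from mitochondrially encoded genes moved with the classification, at 1.27% or more in each small pool and 1.18% or less in each spontaneous pool, and with CPM recomputed without those genes ZAR1 was 0.78 higher in spontaneous pools with a nominal limma p of 0.0129. Summed cumulus markers overlapped between the classifications, at 1024 to 4381 CPM in small and 1039 to 2994 CPM in spontaneous pools, as did oocyte markers, at 9831 to 13031 and 9099 to 12280 CPM. The ZAR1 gene body overlaps that of FRYL in the RefSeq annotation, and FRYL averaged 264 ± 38.4 CPM (SD, n = 6) in small and 264 ± 55.3 CPM (SD, n = 4) in spontaneous pools. In CC pools FRYL was at 127 to 228 CPM and ZAR1 at 0 to 0.523 CPM. Whether reads of FRYL were counted as ZAR1 was not tested.

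Between large and spontaneous pools, again 0 of 6 members were called by limma, against 0.943% of all transcripts. OOEP was 0.65 higher in spontaneous pools (SE 0.301, 95% interval 0.03 to 1.26, nominal limma p = 0.0411, adjusted p = 0.968, exact permutation p = 0.0476) and was the 1 member with an unadjusted p under 0.05, against 4.87% of all transcripts. That p was over 0.05 in the fit shared by all 3 classifications, with edgeR or the replicate block, and without large replicate 3, 4, 5 or 6 or spontaneous replicate 1, 3 or 4, up to 0.154, beside the exact permutation p of 0.0476 with all pools. TLE6 was 0.63 higher (SE 0.415; 0.30 without spontaneous replicate 4) and ZAR1 0.49 higher (SE 0.269), and both 95% intervals held 0. The change of PADI6 was 0.10 with an interval of -0.38 to 0.57, and -0.032 without spontaneous replicate 1. Both edgeR and DESeq2 called 0 members in either comparison with spontaneous pools.

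All 6 members had a log2 fold change above 0 from small to spontaneous pools, as did 55% of all transcripts, and all 6 did so from large to spontaneous pools, as did 50.9%. Their median was 0.37 and 0.39, beside 0.05 and 0.01 over all transcripts tested. Both comparisons used the same 4 spontaneous pools, so they are not independent of each other. Among all transcripts tested, the small to spontaneous change of ZAR1 was higher than that of 90.8% and the change of OOEP higher than that of 88.8%.

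**Figure D2:**
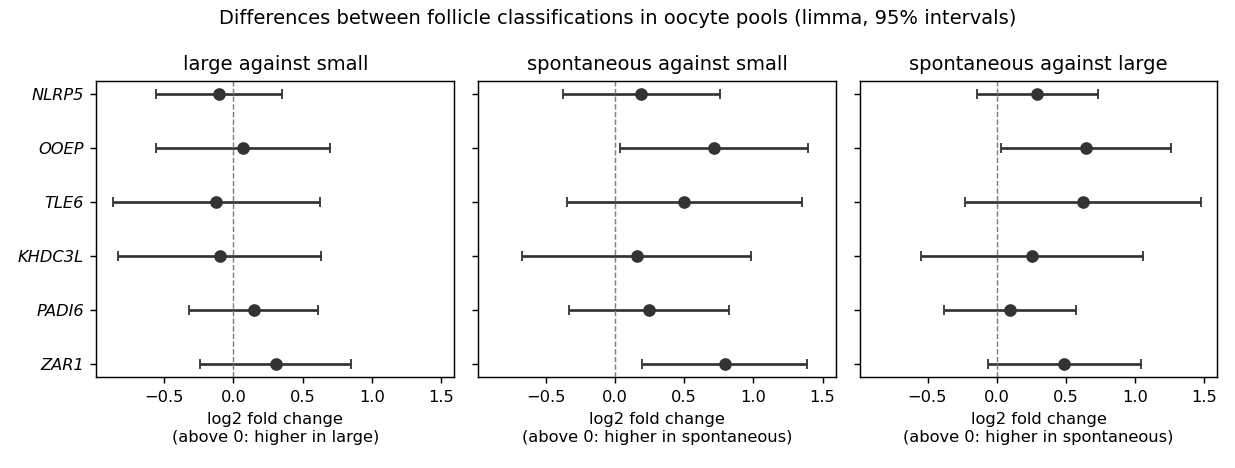
Log2 fold changes on the log2(CPM + 1) scale (horizontal axes) of the 6 members between oocyte pools of 2 classifications, with 95% intervals from limma. The dashed line marks no change. All 6 points lie above 0 in both comparisons with spontaneous pools, where the intervals of OOEP (both) and ZAR1 (against small, 0.20 to 1.39) leave out 0.

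The members differed in how stable they were from pool to pool. The coefficient of variation over the 16 oocyte pools was lowest for PADI6, at 24.1%, and highest for TLE6, at 49.0%, with 34.3% for OOEP, 34.7% for ZAR1 and 36.9% for both NLRP5 and KHDC3L. The median over all retained transcripts was 45.9%. PADI6 thus varied less than all but 17.7% of retained transcripts, but its mean CPM was above that of 75.7% of them and the comparison was not matched for level. The coefficient of variation also holds the differences between classifications. Within classifications, the residual SD of log2(CPM + 1) was 0.378 for PADI6, 0.601 for TLE6 and 0.596 for KHDC3L, beside a median of 0.661 over all retained transcripts.

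The members were then compared with each other from pool to pool. After each classification was centred on its mean, Pearson's r of log2(CPM + 1) over 16 oocyte pools ran from -0.53 for OOEP and KHDC3L to 0.69 for TLE6 and ZAR1 in the 15 pairs of members, with a median of 0.14, against a median of 0.00 over all pairs of retained transcripts. For TLE6 and ZAR1 the permutation test gave p = 0.00417 (adjusted over 15 pairs 0.0625) and Spearman's rho was 0.63 (p = 0.0133, adjusted 0.200). Without the 2 pools farthest from the median of TLE6, r was 0.61. In the pairs below, the pools left out were chosen by OOEP or NLRP5 alone. TLE6 and ZAR1 passed an adjusted 0.05 only without centring (r = 0.70, permutation p = 0.00244, adjusted p = 0.0366), a setting that keeps the differences between classifications. For the neighbouring genes OOEP and KHDC3L, r was -0.53 (permutation p = 0.0576, adjusted 0.432), rho was -0.54 (p = 0.0506, adjusted 0.253) and r without 2 pools was -0.36. The r of KHDC3L with each of the other 5 members lay between -0.14 and -0.53, and none passed adjustment. With NLRP5 it was -0.33, but rho was -0.04 and r was 0.12 without 2 pools. Points in these correlations share library depth and the closure of CPM to a fixed total.

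**Figure D3:**
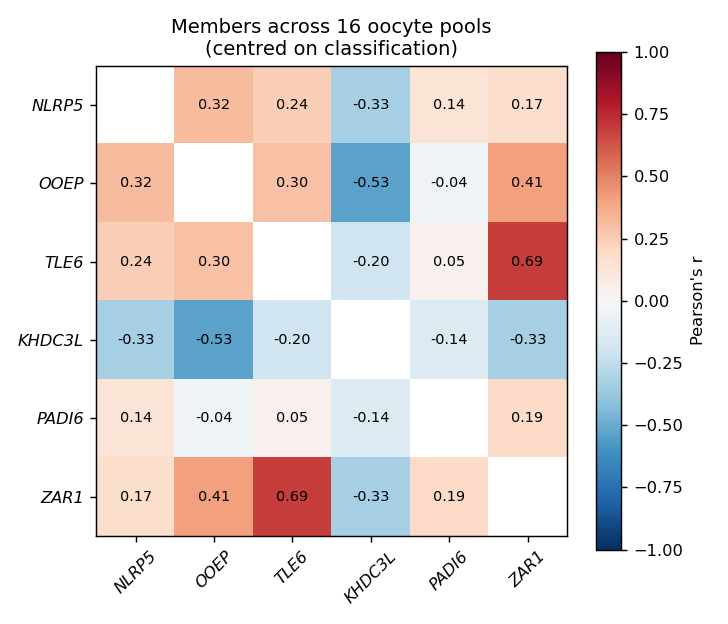
Pearson's r between members over 16 oocyte pools, on log2(CPM + 1) centred on the mean of each follicle classification. Red cells are positive and blue cells negative. The strongest cells are TLE6 with ZAR1 (0.69) and OOEP with KHDC3L (-0.53), and the KHDC3L row is negative throughout.

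Spontaneous replicate 4, small replicate 6 and large replicate 2 each had 5 of 6 members above the mean of their classification, while large replicate 6 had 0 of 6. The 3 transcripts most like the mean of the 6 standardised members over the 16 pools, of 10070 compared, were MAP3K4 (r = 0.85), a stress kinase, LSM2 (r = 0.83), a component of the LSM ring that binds RNA, and LYRM2 (r = 0.82). Their mean levels over the 16 pools were 124, 20.8 and 4.49 CPM, the last of these under 5 CPM. These r are the highest of 10070 values over 16 pools, and how high chance alone reaches in such a search was not tested.

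In CC pools the members were near or below the limit of detection, apart from OOEP and, in a few pools, NLRP5. None of the 5 listed members reached 5 CPM in 5 or more CC pools, so 0 of 5 were among the 9712 transcripts tested there. When limma was fitted without that filter it called 0 of 5 in each CC comparison, against 0.745% (small and large), 1.98% (small and spontaneous) and 1.42% (large and spontaneous) of all genes. KHDC3L had 3 reads, all in small replicate 2, and ZAR1 had 3 reads in 2 pools. TLE6 had 16 reads in 10 of 17 pools, with at most 1.23 CPM. NLRP5 had 51 reads in 13 of 17 pools, from 0 to 2.94 CPM, with the highest values in large replicates 6 and 2 (2.94 and 2.49 CPM) and small replicate 1 (2.15 CPM).

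OOEP was the exception, with 205 reads and at least 1 read in 16 of 17 CC pools. Its lowest, median and highest values were 1.05, 3.06 and 13.7 CPM in small and 0, 0.844 and 3.98 CPM in large pools, and the spontaneous pools had 3.34, 1.76, 1.63, 0.907 and 1.76 CPM. Small replicate 6, the deepest CC pool, held 79 of the reads, or 38.5%. The classifications overlapped, and exact permutation tests of mean CPM gave p = 0.165 (small and large), 0.216 (small and spontaneous) and 0.727 (large and spontaneous).

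Every oocyte pool lay above every CC pool for all 5 members listed in both tables, as it did for 17.5% of the 14980 genes listed in both. The tables were scaled separately, so the ratios between them are descriptions and were not tested. Over all reads, oocyte pools held 222 times the CC level of NLRP5 (95% counting interval 169 to 298), 163 times that of TLE6 (100 to 285), and 19.7 times that of OOEP (17.2 to 22.8). The ratios of KHDC3L, 906 (310 to 4397), and ZAR1, 2039 (698 to 9889), rest on 3 CC reads each. The interval of OOEP did not overlap those of the other 4 members. The same ratio was 831 (661 to 1060) for the oocyte growth factor GDF9, 35017 (18446 to 76580) for the zona pellucida protein ZP2 and 175 (138 to 225) for the germ cell RNA-binding protein DAZL. The ratio of OOEP was thus below those of all 5 oocyte markers listed in both tables, of which that of DAZL was the lowest. Every gene listed for CC had reads in some CC pool, so these markers and the 14980 genes were selected on detection in CC.

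**Figure D4:**
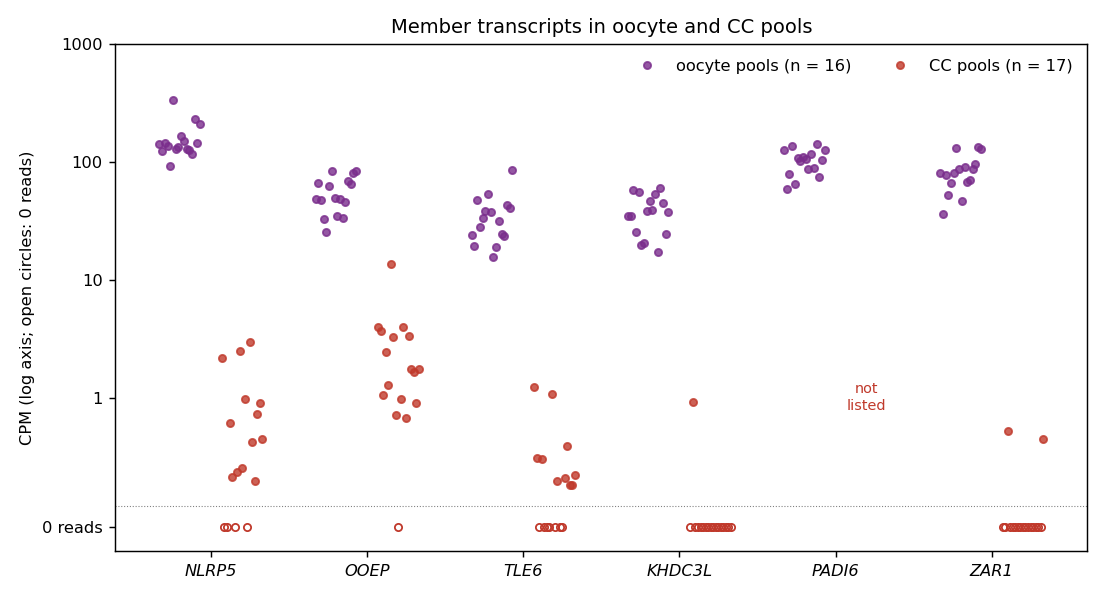
CPM on a log axis in 16 oocyte pools (purple) and 17 CC pools (red), with open circles below the dotted line for pools with 0 reads. The 2 tables were scaled separately and CPM is not per length, so columns of different genes are not comparable. Oocyte and CC points do not overlap for any gene listed in both, and OOEP has the smallest gap, with 13.7 CPM in 1 CC pool beside an oocyte minimum of 25.6 CPM.

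CC pools can carry oocyte transcripts, so the members were set beside the oocyte markers in CC. Across 17 CC pools, the summed CPM of the 5 members and that of the oocyte markers had r = -0.26 (permutation p = 0.338) and rho = -0.08 (p = 0.773). Without the 2 pools farthest from the median of the marker sum, r was -0.05. In CC small replicate 6, where OOEP had 79 reads, the oocyte markers and the other 4 members had 0 reads. For the 4 members other than OOEP, a sum chosen after the data were seen, r was 0.35 (permutation p = 0.175, adjusted over 2 relations 0.338) and rho was 0.53 (p = 0.0295, adjusted 0.059), but r was 0.04 without 2 pools. These sums rest on 0 to 79 reads a pool. GDF9 (73 reads) and DAZL (69) gave most marker reads in CC, where ZP2, OOSP1 and ZP3 had 9, 10 and 2. Over all oocyte reads these genes stood at 845, 169, 4392, 1851 and 737 CPM, in that order. On these few reads the markers in CC did not follow their oocyte CPM, so the marker sum cannot be taken as a measure of oocyte material in CC. Where the member reads in CC came from was not tested.

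**Figure D5:**
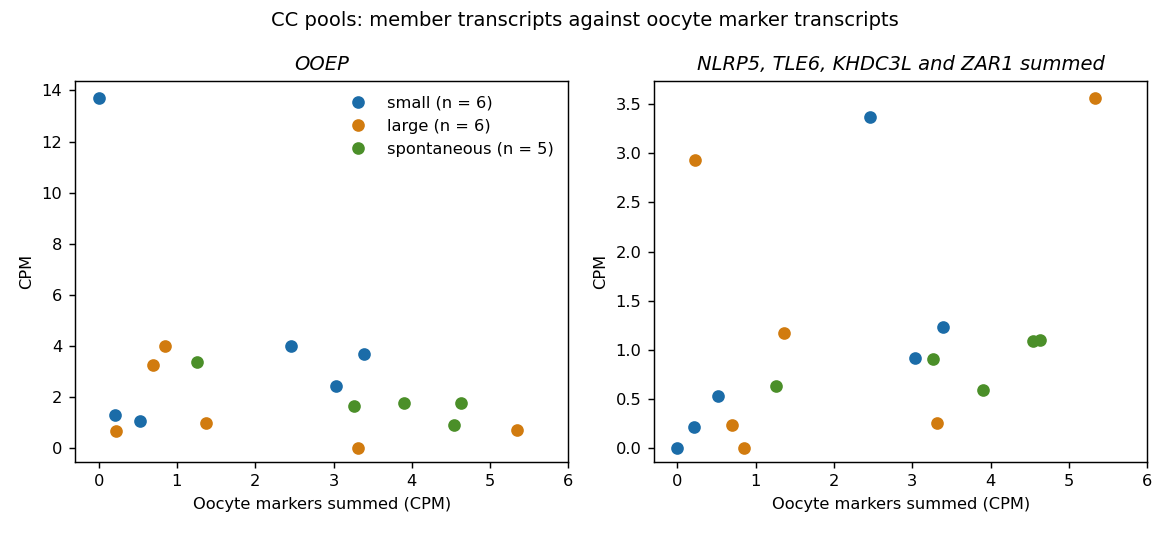
CC pools by the summed CPM of 5 oocyte markers (horizontal) and the CPM of OOEP (left) or of NLRP5, TLE6, KHDC3L and ZAR1 summed (right), coloured by classification. The pool with the most OOEP, 13.7 CPM, has oocyte markers at 0, and NLRP5, TLE6, KHDC3L and ZAR1 summed stay under 4 CPM in every pool.

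Genes related to the members, or sharing their role, were followed in the same fits. Of 12 NLRP family genes looked up, 8 were listed and 5 were tested in oocytes, with 0 called by limma in any comparison and 0 at an unadjusted p under 0.05. NLRP9 and NLRP14, both known as oocyte genes, had 1011 ± 150 and 818 ± 145 CPM (SD over 16 pools), and neither was listed for CC. Against small pools, the log2 fold change in spontaneous pools was -0.28 for NLRP9 (SE 0.138), -0.02 for NLRP14 (SE 0.160) and 0.19 for NLRP5. NLRP8, which lies next to NLRP5 in the RefSeq annotation, averaged 289 CPM in oocytes and had 1 read in all CC pools.

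Among 14 relatives of the other members, such as the TLE corepressors and the other peptidylarginine deiminases, 10 were listed and 5 tested in oocytes, and limma called 0, with TLE4 the 1 gene at an unadjusted p under 0.05. ZAR1L, the paralog of ZAR1, had 329 ± 76.0 CPM (SD over 16 pools) with 329 ± 61.3 CPM in small (SD, n = 6) and 356 ± 96.5 CPM in spontaneous pools (SD, n = 4) and a log2 fold change of 0.09 (95% interval -0.31 to 0.49), where that of ZAR1 was 0.79. Whether these changes differ was not tested. Unlike ZAR1, it had reads in 17 of 17 CC pools (0.523 to 11.5 CPM), and its oocyte to CC ratio was 88.7 (78.7 to 100). TLE4 had 82.9 ± 33.3 CPM in small (SD, n = 6) and 46.6 ± 1.51 CPM in spontaneous pools (SD, n = 4), a log2 fold change of -0.72 (SE 0.323, limma adjusted p = 0.987, exact permutation p = 0.0286). The deiminase genes PADI1, PADI2, PADI3 and PADI4 were at most at 8.71 CPM in any oocyte pool and were not tested, so PADI6 alone of these 5 deiminase genes passed the filter.

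Of 8 storage partners of ZAR1, proteins that hold maternal messenger RNA in the egg, 6 were listed and tested in oocytes, and limma called 0, with 0 at an unadjusted p under 0.05. EIF4ENIF1, a binding protein of the cap-binding factor eIF4E, had 476 ± 84.2 CPM, and YBX2, a germ cell RNA-binding protein, had 334 ± 84.9 CPM (SD over 16 pools). From small to spontaneous pools YBX2 had a log2 fold change of 0.36 (SE 0.187) and EIF4ENIF1 one of 0.02. Of 18 other maternal-effect genes, all were listed, 16 were tested in oocytes and limma called 0, again with 0 at an unadjusted p under 0.05. The median log2 fold change between small and spontaneous pools was -0.09, beside 0.37 for the members. BTG4, which drives decay of maternal messenger RNA, and WEE2, an oocyte kinase that acts at the meiotic arrest, had 3973 ± 497 and 2267 ± 347 CPM (SD over 16 pools) and small to spontaneous log2 fold changes of 0.04 and -0.11.

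In CC, 1 gene of these lists was called by limma. UBE2A, a ubiquitin-conjugating enzyme, had 22.4 ± 8.37 CPM in small, 19.2 ± 9.41 in large (SD, n = 6 each) and 35.0 ± 5.83 CPM in spontaneous CC pools (SD, n = 5). It was 0.96 higher in spontaneous than in large pools on the log2 scale (SE 0.308, nominal limma p = 0.00613, adjusted p = 0.567, exact permutation p = 0.013), in a comparison that called 1.66% of all transcripts. In fits added after the data were seen, it was not called with median-of-ratios scaling (0.87 higher), CPM without mitochondrially encoded genes (0.91), edgeR or DESeq2 (0.77 each), nor without large replicate 2, 5 or 6 or spontaneous replicate 1, 2, 3 or 4. The median change over all CC transcripts was 0.11 on CPM and 0.014 after median-of-ratios scaling. The spontaneous pools were higher in 141 of 161 calls on the first scale and in 62 of 116 on the second. Mitochondrially encoded genes took a median of 21.4% of the reads in large and 15.6% in spontaneous CC pools. UBE2A was the only one of the 13 maternal-effect genes tested in CC to be called there on CPM.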

How the data were processed

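RNA from pools of 4 oocytes or of the CC of 4 complexes was amplified and sequenced. The authors mapped the reads to the bovine genome UMD3.1 (Hisat2), assigned them to Ensembl genes (FeatureCounts) and deposited CPM. The strand setting of the counting is not given in the sources used here. All columns were matched to pools by name. Whole reads, within 0.01 of a read, could be recovered from 100% of the values. Transcripts that reached 5 CPM in 4 or more oocyte pools, or 5 or more CC pools, were tested with limma on log2(CPM + 1), two-sided and with its variance trended on the mean, because the deposited unit is CPM, with Benjamini-Hochberg adjustment over all transcripts tested. Exact permutation tests compared mean CPM, and correlations used 100000 permutations. The count tests of the study, edgeR and DESeq2, were alternatives. The members and lists were chosen with earlier results of these data known. Named genes are all members, list genes that were called, otherwise the 2 of each list highest in oocyte CPM (a choice of names, not a ranking of levels), the 3 transcripts most like the members, and neighbours, markers and relatives named beside a member after their values were seen. Replicates were checked for repeats, and the most alike oocyte and CC libraries still had a chi-square of 60.9 and 13.4 per degree of freedom. The tests were first tried on simulated data. R 4.3.3, limma 3.58.1, edgeR 4.0.16, DESeq2 1.42.0, Python 3.11.15 and scipy 1.17.1 were used. Coordinates and sequences are not given, as no UMD3.1 genome was used here.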

Additional observations from a re-analysis of the deposited data

Results flagged for a closer look

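Within groups of 4 to 6 pools of 1 classification, 10 of 30 member groups had a pool far from the others by Dixon's test, which chance alone does in about 1 in 20 groups. That rate does not apply to groups of a few reads, where 1 pool with reads among pools at 0 is always far from the others. In oocytes there were 2 of 18 groups. NLRP5 was at 332 CPM in small replicate 6, where the next pool had 144 CPM, and OOEP was at 83.8 CPM in large replicate 1, where the next had 49.6 CPM.

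The other 8, of 12 groups, were in CC, most on 1 to 4 reads. OOEP stood at 13.7 CPM (79 reads) in small replicate 6, and NLRP5 at 2.15 CPM (7 reads) in small replicate 1. TLE6 stood at 1.23 CPM in small replicate 1, 1.07 CPM in large replicate 2 and 0.39 CPM in spontaneous replicate 2. KHDC3L was at 0.923 CPM in small replicate 2, and ZAR1 at 0.523 CPM in small replicate 3 and 0.441 CPM in spontaneous replicate 5, where all other pools of the group had 0 reads.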

How the results depend on the processing

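Over 354 alternative values of the 18 member changes in oocytes, 342 kept their direction. The 12 that did not all came from leaving out 1 pool, and 0 of the 162 others turned. With each pool left out in turn, the log2 fold change in large against small pools ran from -0.24 to 0.13 for NLRP5, -0.094 to 0.18 for OOEP, -0.31 to 0.037 for TLE6 and -0.26 to 0.079 for KHDC3L. From small to spontaneous pools it ran from -0.037 to 0.38 for KHDC3L, and from large to spontaneous pools from -0.032 to 0.27 for PADI6. The count of members called between small and spontaneous pools was 1 (ZAR1) with all 3 classifications in one fit and 0 to 1 with each pool left out. With the replicate number as a block it was 0, and ZAR1 was 0.90 higher. Between pools that share a number, r of the deviations from the classification means ran from -0.13 to 0.14 in oocytes and -0.19 to 0.22 in CC. The main fits did not pair pools by number, and whether a number marks a shared collection was not tested. Without centring, 1 pair of members passed the adjusted threshold by Pearson's r (TLE6 and ZAR1) and 1 by Spearman's rho (OOEP and ZAR1), in place of 0. In CC pools r between members and oocyte markers was 0.35 without OOEP and -0.16 when centred.

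In CC pools 3 reads were worth up to 1.57 CPM, so differences of TLE6, KHDC3L and ZAR1 between classifications were not detectable at this depth.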
